A study of Mus musculus with 7 samples.

Results

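The genes described here encode the proteins that hold epithelial cells to each other: cadherins, catenins, and the plakin, plakoglobin and plakophilins of desmosomes. They were taken by gene symbol from the table of array values, as every numbered cadherin (Cdh) and protocadherin (Pcdh), desmocollin (Dsc), desmoglein (Dsg), plakophilin (Pkp), alpha-, beta- or delta-catenin (Ctnn), Dsp and Jup. By this rule 47 of the 17096 genes measured were members: 19 numbered cadherins, 11 protocadherins, 6 desmosomal cadherins, 6 catenins, and 5 plakophilin, desmoplakin and plakoglobin genes. Dsg3 and Pkp3 were not analysed here.

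RNA of sorted mammary cells was amplified and hybridised to 7 Affymetrix mouse arrays. The titles of the 4 adult arrays mark them as a reanalysis, and those of the 3 embryonic arrays do not. Adult luminal cells (2 arrays) were YFP+ cells of K8CREERT2/RosaYFP mice, in which a tamoxifen-inducible Cre under a keratin 8 promoter switches on YFP, and adult basal cells (2 arrays) were YFP+ cells of K5CREERT2/RosaYFP mice, with the keratin 5 promoter. Both were collected 8 weeks after tamoxifen, so each adult group was sorted for cells that the promoter labelled, with their descendants. The purity of the sorts was not measured here. The age of the adult mice was not given in the labels, whose tissue field describes the adult samples too as embryonic, and they do not say whether replicates were separate animals. The p-values thus reflect array-to-array spread, which may be technical. The third group was CD49fHi Lgr5Hi mammary cells of Lgr5-IRES-GFP female embryos at embryonic day 14 (3 arrays of 2000, 2000 and 813 cells), each a pool of the females of 1 litter, where CD49f is integrin alpha 6 and GFP reports Lgr5.

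Classical cadherins bind the same kind of cadherin on the next cell through their outer domains, in the presence of calcium. Inside the cell their tails bind p120-catenin (Ctnnd1) and beta-catenin (Ctnnb1) or plakoglobin (Jup), and beta-catenin is linked to actin through alpha-catenin (Ctnna1). In desmosomes, desmogleins and desmocollins take the place of classical cadherins, and plakoglobin, plakophilins and desmoplakin (Dsp) tie them to keratin filaments. In the mammary gland E-cadherin (Cdh1) is found in both layers of the epithelium and P-cadherin (Cdh3) is used as a marker of the basal, myoepithelial layer.

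Levels are given as log2 of the deposited intensity, differences as luminal minus basal on that scale, and a gene is said to have changed when limma gave it both a 2-fold or larger difference and an adjusted p (Benjamini-Hochberg, all genes) under 0.05. A level of 5.92 serves as background: 95% of 138 probe sets for 105 organ-restricted genes, such as sperm and retina genes, lay under it. This level is approximate and was settled after member levels had been seen: an earlier version at 6.13 would also have placed Cdh2 and Pcdh10 below it, 29 members in place of 27. Fgb, a fibrinogen gene on that list, lay at 8.28 in luminal and 7.11 in basal cells. Of the 47 members, 20 lay above it in at least 1 adult lineage and 27 in neither. Lineage markers differed in the direction of the labels. Of 9 measured basal markers, 6 rose on the basal side, including Krt5 (-2.75 ± 0.32, SE) and Trp63 (-2.77 ± 0.37). Itga6 (-0.45), Itgb4 (-0.02) and Acta2 (-2.65) did not pass. Of 12 luminal markers, 8 rose in luminal cells, among them Foxa1 (2.71 ± 0.25) and Pgr (1.88 ± 0.22). Krt5 and Krt14 still had luminal means of 9.34 and 9.48, well above the background level, whereas Cnn1 lay below it at 5.53. Krt8, whose promoter labelled the luminal cells, had a difference of 0.40 ± 0.15 and did not pass (limma adjusted p = 0.121). Its mean was 11.04 in luminal and 10.64 in basal cells.

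The embryonic columns had an unusual structure. Replicates 1 and 2 held identical values for 16913 probe sets (37.6%), and for 20 of the 47 members, while at most 94 probe sets were identical between any pair of adult arrays. The embryonic mean lay between the luminal and the basal mean for 41 of the 47 members, and for 88.7% of all probe sets. It lay within 0.1 of the midpoint of the adult means for 35 members. Over all probe sets the embryonic minus the adult mean had an SD of 0.09, against 0.49 for luminal minus basal. A place between the adult groups is thus no sign of an intermediate state. Embryonic levels of members are therefore given as they stand in the table and were not tested against adult cells. The fit to all 7 arrays shares 1 estimate of spread per gene, so these columns, ties included, enter its SEs, intervals and p-values.

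Between the adult lineages 5 of the 47 members changed. P-cadherin (Cdh3), protocadherin 18 (Pcdh18) and plakophilin 4 (Pkp4) were higher in basal cells, and plakophilin 2 (Pkp2) and desmocollin 2 (Dsc2) were higher in luminal cells. These were 10.6% of members, against 5.49% of all genes changed. By direction, 6.38% of members were higher in basal cells, against 2.63% of all genes, and 4.26% were higher in luminal cells, against 2.87%. The median difference was -0.17 over the members and 0.02 over all genes, and 34 of 47 members (72.3%) had a negative difference, against 46.1% of all genes. For 32 members the lineages had no overlap between their arrays (68.1%), against 59.2% of all genes.

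**Figure D1:**
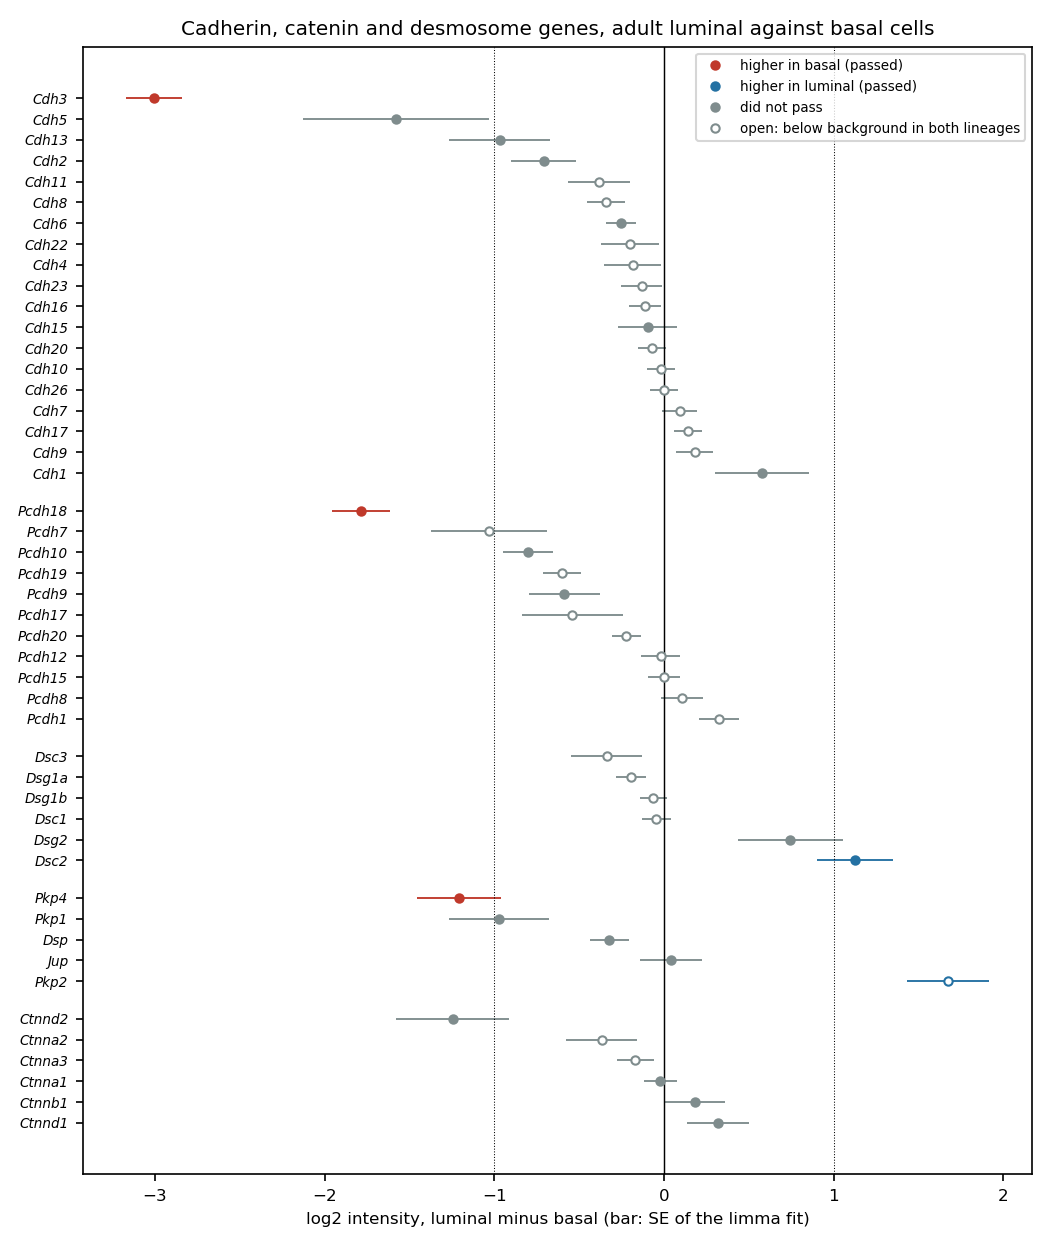
Difference in log2 intensity between adult luminal and basal arrays (x axis) for each of the 47 members, ordered within families; points are limma estimates and bars their SE, dotted lines mark 2-fold, red and blue points changed and open points lay below the background level in both lineages. Cdh3 at -3.01 and Pkp2 at 1.67 are the ends of the range.

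Among classical cadherins, Cdh3 differed more than any other member. Its level was 9.67 and 9.78 in the basal arrays and 6.60 and 6.84 in the luminal arrays. The basal arrays lay close together and far above both luminal arrays, which still exceeded the background level. The difference was -3.01 ± 0.16 (SE, n = 2 and 2 arrays, limma adjusted p = 0.00228), an 8.04-fold higher intensity in basal cells. Cdh3 passed in every alternative analysis that kept all 4 adult arrays. Those with a looser or no fold minimum could not have lost the call. Without 1 adult array its difference ran from -3.13 to -2.88. A dimmer probe set of the gene, below the background level on average, had a difference of -0.79. In the embryonic columns Cdh3 was listed at 8.00, 7.95 and 7.60, between the adult groups as most members were.

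E-cadherin (Cdh1), the main epithelial cadherin, was measured by 1 probe set and did not pass. Its level was 8.89 and 8.47 in luminal and 8.11 and 8.10 in basal arrays. Both luminal arrays lay above the basal ones, but they lay farther from each other than the lower of them lay from the basal arrays. The difference of 0.58 had a 95% confidence interval from -0.10 to 1.25 (limma adjusted p = 0.218). In the gene table of assembly GRCm38.p6, Cdh3 and Cdh1 are neighbouring protein-coding genes on chromosome 8, and only Cdh3 of the pair changed; the difference between the pair was not tested. N-cadherin (Cdh2), typical of neural and mesenchymal cells, stood at 5.49 and 5.34 in luminal and at 5.97 and 6.28 in basal arrays, just above the background level in basal cells. At -0.71 ± 0.19 it did not pass (limma adjusted p = 0.0604), and at the stricter level of 6.13 it would count as background in both lineages.

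Cadherins known from other cell types were also measured. VE-cadherin (Cdh5), the cadherin of endothelial junctions, stood at 5.85 and 7.32 in the luminal and at 7.85 and 8.48 in the basal arrays. The luminal arrays differed by 1.47, the widest gap between replicates among the members, and -1.58 ± 0.55 was not past the threshold (limma adjusted p = 0.108). The difference was -0.84 without luminal replicate 1 and -2.31 without luminal replicate 2, and passed in neither case. T-cadherin (Cdh13), which is held to the membrane by a lipid anchor and has no catenin-binding tail, stood at 7.45 and 7.0 in luminal and 7.95 and 8.44 in basal arrays. Its groups did not overlap, and its difference of -0.97 ± 0.30 missed both criteria (limma adjusted p = 0.0817). Other probe sets of Cdh13 above the background level gave -1.05 and -0.83, and a dim probe set gave -0.03. Cdh11, a cadherin of mesenchymal cells, and Cdh16, a cadherin of kidney epithelium, lay below the background level in both lineages, with differences of -0.38 and -0.11. Cdh6 (-0.25 ± 0.09) and Cdh15, the cadherin of muscle precursors (-0.10 ± 0.17), lay above it and did not pass. At the probe sets used, the 12 numbered cadherins below the background level in both lineages had differences from -0.38 to 0.18, which do not show unchanged expression. The 4 probe sets of Cdh10, all dim, ranged from -0.86 to -0.02.

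Marker lists of other cell types were read in the same arrays. The summed intensity of 12 endothelial markers, from which Cdh5 was left out, was 406 and 641 in luminal replicates 1 and 2 and 899.6 and 1435 in basal replicates 1 and 2. Cdh5 had the same order, but so did Cdh3 and the fibroblast, leukocyte and basal marker sums. None of the 12 changed, their median difference was -1.0, and 6 lay above the background level in basal and 3 in luminal cells. Among them Pecam1, a surface protein of endothelium, had a difference of -1.63 ± 0.72. Among 13 fibroblast markers, 4 rose on the basal side, with a median of -1.06 and sums of 3216 and 5195 in luminal and 8190.4 and 9841 in basal arrays. The 4 were Col5a1, Col6a1, Postn and Mfap5, the last below the background level in both lineages. The other 9 did not pass, among them Col1a1 (-1.38 ± 0.56) and Dcn (0.05 ± 0.28). Of 9 leukocyte markers none changed (median -0.25, sums of 535 and 589 in luminal and 625 and 753 in basal arrays). Ptprc, the common leukocyte antigen, lay below the background level in both lineages, but 4 of the 9 lay above it in at least 1 lineage. These were Lyz2 (-1.61 ± 0.75), Cd74 (-0.80 ± 0.40), Cd68 (-0.49 ± 0.14) and Cd14 (0.79 ± 0.28). Of 8 Schwann and melanocyte markers 1 was higher in luminal cells (median 0.03, sums of 1330 and 1287 in luminal and 634 and 814 in basal arrays), Erbb3, a receptor that epithelial cells also express. The part of endothelial, fibroblast and leukocyte RNA in the basal side of Cdh5, Cdh13, Cdh2 and the protocadherins was not tested. In such bulk samples fewer cells of a type and less RNA per cell cannot be told apart.

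**Figure D2:**
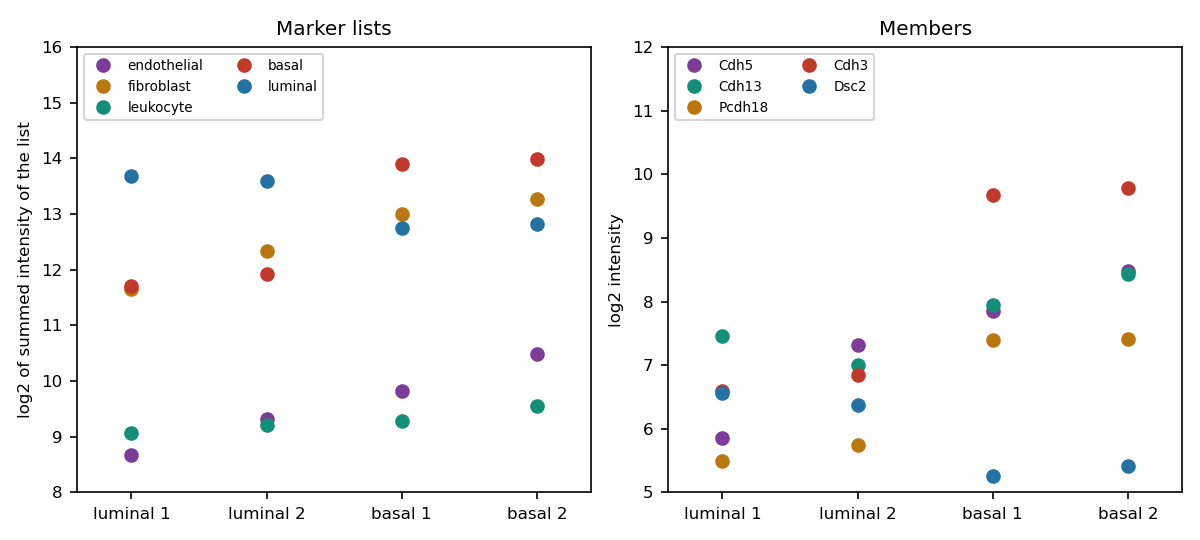
Left, log2 of the summed intensity of each marker list in the 4 adult arrays; right, log2 intensity of 5 members in the same arrays. Endothelial, fibroblast, leukocyte and basal marker sums all run from lowest in luminal replicate 1 to highest in basal replicate 2. So do Cdh5, Cdh3 and Pcdh18. Cdh3 and Dsc2 separate the lineages with little spread within them.

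Protocadherins are cadherin-like adhesion proteins that do not use the catenin tail of classical cadherins and are best known from the nervous system. Pcdh18 stood at 7.39 and 7.41 in the basal arrays and at 5.50 and 5.74 in the luminal arrays. The basal arrays were nearly equal and both luminal arrays lay below the background level, so the size of the difference is not exact. It was -1.78 ± 0.17 (n = 2 and 2 arrays, limma adjusted p = 0.00701), and the other probe sets of the gene gave -1.07 and -2.06. Pcdh18 no longer passed without luminal replicate 1 (limma adjusted p = 0.0684) or with arrays weighted by quality (0.0574). Its embryonic columns listed 6.75, 6.28 and 6.40.

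Pcdh10 had levels of 5.47 and 5.14 in luminal and 6.10 and 6.11 in basal arrays. Its difference of -0.80 ± 0.15 had a limma adjusted p of 0.0251 but was under 2-fold. That probe set had an adult mean of 5.70, below the background level, and dimmer probe sets of the gene gave 0.07, -0.04 and -0.03. Pcdh19, named after its values were seen, had the same adjusted p with -0.60 ± 0.11 and lay below the background level in both lineages. A dimmer probe set of Pcdh19 gave -0.13. Pcdh9 (-0.59 ± 0.21) lay above that level in both lineages and did not pass, and a dim second probe set gave -0.07. Pcdh7, also named after its values were seen, lay below the level in both lineages; its -1.03 ± 0.34 did not pass over all arrays (limma adjusted p = 0.0964) and passed in the 4 adult arrays alone (0.0174). The 8 protocadherins below the background level in both lineages had differences from -1.03 to 0.32.

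Of 6 desmosomal cadherins 1 changed. Dsc2, a desmocollin of simple and stratified epithelia, stood at 6.56 and 6.37 in luminal and at 5.26 and 5.42 in basal arrays. Both basal arrays lay below the background level and both luminal arrays above it. The difference was 1.13 ± 0.22 (n = 2 and 2 arrays, limma adjusted p = 0.0294), and a dimmer second probe set gave 1.60. The call was lost when any 1 of the 4 adult arrays was left out (limma adjusted p from 0.0922 to 0.172). Embryonic columns listed Dsc2 at 5.33, 5.40 and 5.97.

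Dsg2, the desmoglein of simple epithelia, was measured by 6 probe sets. The probe set used here stood at 9.96 and 9.60 in luminal and at 8.92 and 9.15 in basal arrays, without overlap. At 0.74 ± 0.31 it missed the threshold (limma adjusted p = 0.162, 95% confidence interval from -0.01 to 1.5), and the 6 probe sets ranged from 0.68 to 1.05. Dsc3, a desmocollin of basal layers in stratified epithelia, lay below the background level in both lineages (5.31 and 5.65), with arrays that overlapped and a difference of -0.34 ± 0.21. Dsc3, Dsc2 and Dsc1 follow each other in the gene table, and Dsc2 was the 1 of the 3 that changed. Dsc1, Dsg1a and Dsg1b, desmosomal cadherins of differentiated epidermis, lay below the background level as well.

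**Figure D3:**
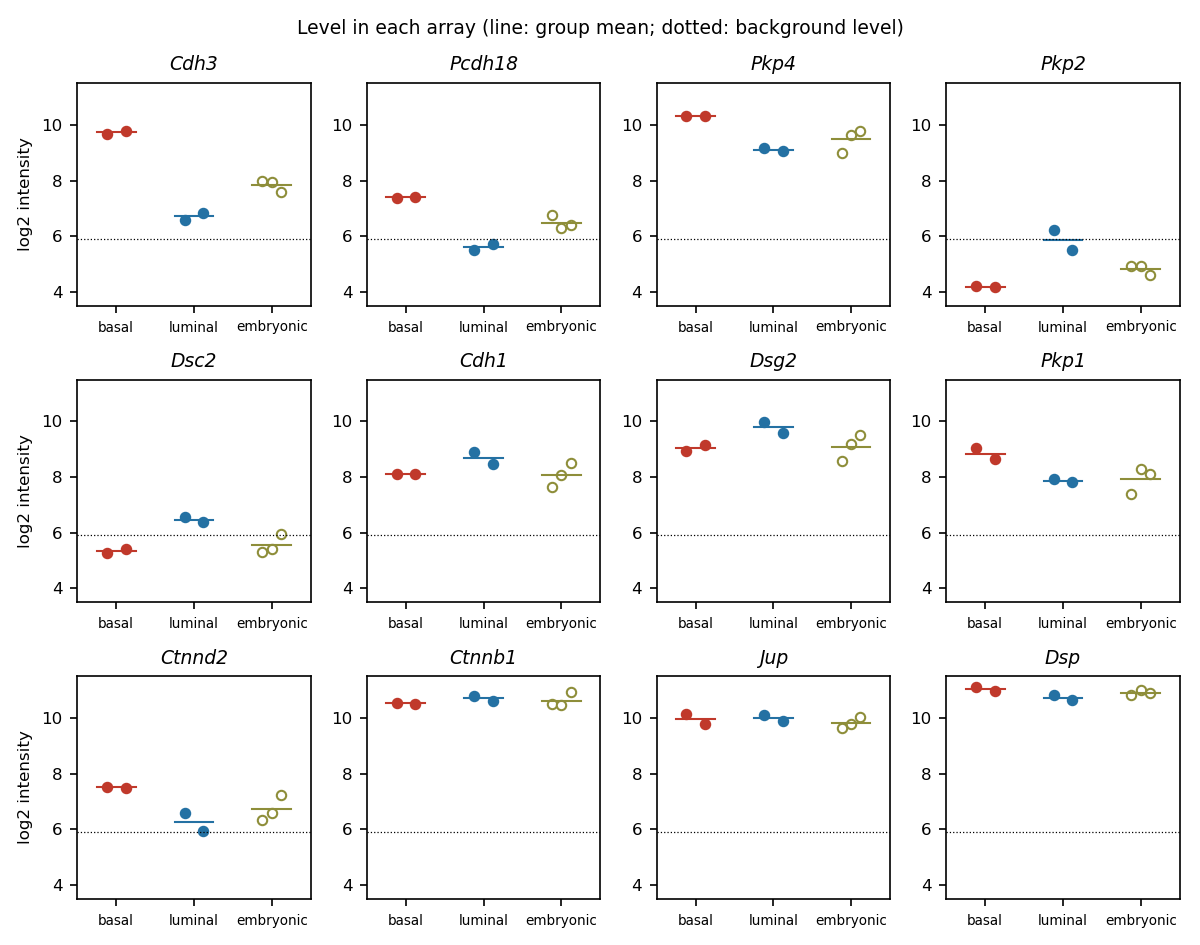
Log2 intensity of 12 members in each array (y axis), with adult basal, adult luminal and embryonic arrays along the x axis, group means as lines and the background level of 5.92 dotted; open embryonic points were not tested. Cdh3, Pcdh18 and Pkp4 lie above their luminal values in both basal arrays, Pkp2 and Dsc2 lie above their basal values in both luminal arrays, although luminal replicate 2 of Pkp2 is below the background level, and the adult groups of Jup overlap.

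Of 3 plakophilins measured, armadillo proteins of the desmosomal plaque, 1 was higher in basal cells, 1 was higher in luminal cells and 1 did not pass. Pkp4, a plakophilin also known from adherens junctions, stood at 10.30 and 10.33 in the basal arrays and at 9.15 and 9.06 in the luminal arrays. Replicates lay within 0.1 of each other in both lineages, and the groups were far apart. The difference was -1.21 ± 0.25 (n = 2 and 2 arrays, limma adjusted p = 0.0316), 2.31-fold higher in basal cells. The call was lost on leaving out any 1 of the 4 adult arrays (limma adjusted p from 0.113 to 0.157) or with weighted arrays (0.217), and with the 4 adult arrays alone the adjusted p was 0.00485. The embryonic columns listed Pkp4 at 9.0, 9.62 and 9.79, a wider spread than in either adult lineage.

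Pkp2, the plakophilin of simple epithelia and heart, stood at 6.22 and 5.51 in luminal and at 4.21 and 4.17 in basal arrays. Luminal replicate 1 lay above the background level and luminal replicate 2 below it, and both lay above the basal arrays. The difference of 1.67 ± 0.24 (n = 2 and 2 arrays, limma adjusted p = 0.0155) is not exact in size, since both lineage means lay below the background level. A second probe set gave 2.06. Without luminal replicate 1 the difference was 1.32 and did not pass (limma adjusted p = 0.0698), and it did not pass without basal replicate 1 (0.0885) or 2 (0.0689) either. Pkp1, a plakophilin of stratified epithelia, pointed to the basal side with 9.03 and 8.66 in basal and 7.93 and 7.82 in luminal arrays. Its difference of -0.97 ± 0.29 missed both criteria (limma adjusted p = 0.0789). The 2 plaque proteins shared by all desmosomes did not pass. Jup had 10.09 and 9.88 in luminal and 10.12 and 9.76 in basal arrays, with a difference of 0.04 and a 95% confidence interval from -0.40 to 0.48. Dsp had -0.32 ± 0.11 (95% confidence interval from -0.60 to -0.05, limma adjusted p = 0.113), with -0.53 and -0.78 at its other probe sets, and its adult arrays did not overlap at any of the 3.

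**Figure D4:**
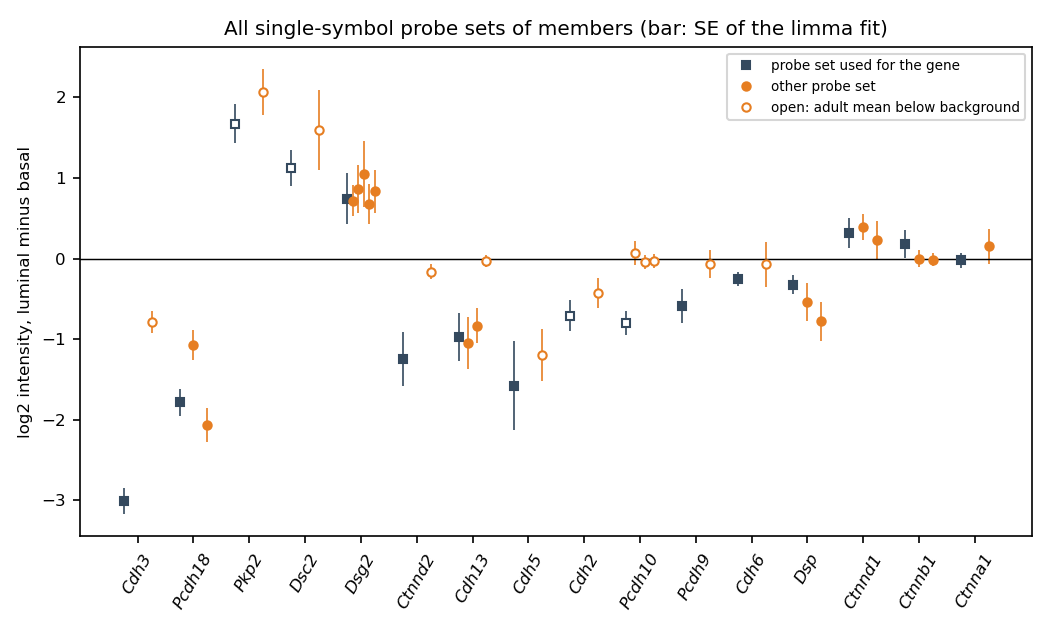
Difference in log2 intensity, luminal minus basal (y axis), for every single-symbol probe set of 16 members with more than 1 probe set; squares are the probe sets that stand for the gene, circles the others, bars the SE, and open marks have an adult mean below the background level. All 6 probe sets of Dsg2 and all 3 of Pcdh18 fall on 1 side of 0, whereas Ctnnd2, Cdh13 and Pcdh10 have dim probe sets near 0.

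None of the 6 catenin genes changed in limma over all 7 arrays; by the same test 19 of all 47 members (40.4%) had an unadjusted p under 0.05, against 31.3% of all genes. Beta-catenin (Ctnnb1), which also carries WNT signals to the nucleus, stood at 10.79 and 10.60 in luminal and 10.54 and 10.49 in basal arrays. These values nearly meet, and the difference of 0.18 had a 95% confidence interval from -0.24 to 0.61. Alpha-catenin (Ctnna1) had levels from 10.02 to 10.17 over the 4 adult arrays, with overlap, and a difference of -0.02 (interval from -0.26 to 0.21). The sign of that difference turned with the choice of probe set (0.15 for the other probe set). The p120-catenin gene Ctnnd1 had 0.32 ± 0.18 (interval from -0.12 to 0.75), and its 3 probe sets ranged from 0.23 to 0.39. For these catenins the intervals leave out a 2-fold difference, which they do not for Cdh1.

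Ctnnd2 encodes delta-catenin, a relative of p120-catenin that is best known from neurons. It stood at 7.52 and 7.49 in basal and at 6.60 and 5.92 in luminal arrays. The basal arrays agreed within 0.1 and the luminal ones differed by 0.68. Its -1.25 ± 0.33 missed the threshold over all arrays (limma adjusted p = 0.0590) and passed in the 4 adult arrays alone (0.0215). A dim second probe set gave -0.16. The neuronal and heart alpha-catenins Ctnna2 and Ctnna3 lay below the background level in both lineages.

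Promoters were matched by symbol to RefSeq's table for build GRCm38.p6, which held 35 start sites of 27 members. The upstream stretches of Pcdh18 and Pkp4, which were higher in basal cells, and of Ctnnd2, which passed only in some analyses, are shown to compare their base composition and motifs. The table has no entry for Cdh3, Pkp2 or Dsc2. Capitals mark the GC box, written GGGCGG or its reverse complement CCGCCC, overlaps counted. Each stretch ends at the base before the outermost annotated start.
Pcdh18 (chr3:49757384-49757566, minus strand): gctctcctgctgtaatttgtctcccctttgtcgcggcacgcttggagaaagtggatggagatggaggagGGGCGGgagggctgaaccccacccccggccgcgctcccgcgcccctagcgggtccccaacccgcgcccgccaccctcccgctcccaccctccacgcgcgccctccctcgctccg
Pkp4 (chr2:59160600-59160849, plus strand): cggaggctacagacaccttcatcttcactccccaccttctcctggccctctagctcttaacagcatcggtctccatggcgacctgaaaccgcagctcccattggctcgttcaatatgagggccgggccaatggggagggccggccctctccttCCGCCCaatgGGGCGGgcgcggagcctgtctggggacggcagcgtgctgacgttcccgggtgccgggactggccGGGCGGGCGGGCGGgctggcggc
Ctnnd2 (chr15:30172284-30172533, plus strand): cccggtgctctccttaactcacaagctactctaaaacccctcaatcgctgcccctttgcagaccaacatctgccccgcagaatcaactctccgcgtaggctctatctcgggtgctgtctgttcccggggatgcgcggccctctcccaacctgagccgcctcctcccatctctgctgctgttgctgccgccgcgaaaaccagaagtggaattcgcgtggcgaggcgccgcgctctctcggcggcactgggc

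The stretches hold 183 bases for Pcdh18 and 250 for each of the others. All are rich in G and C, at 72.1% for Pcdh18, 68.4% for Pkp4 and 62.8% for Ctnnd2, against a median of 52.4% over all 32851 promoters and 62.0% over those of members. Pkp4 held 5 GC boxes, Pcdh18 held 1 and Ctnnd2 none; 32.7% of all promoters held at least 1 in 250 bases and 21.5% in 183. The E-box CAGGTG or CACCTG, the core letters bound by the SNAI and ZEB repressors, was in none of the 3 stretches, and 17.2% of all promoters held it in 250 bases and 13.2% in 183. Among the members' 35 promoters 5 held the E-box and 15 the GC box. A match or its absence in these windows describes letters only.

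Genes that work with cadherins were read from 4 lists, of which 55 of 61 genes were measured. In all, 3 (5.45%) were higher in basal and 1 (1.82%) in luminal cells, against 2.63% and 2.87% of all genes, so the 4 calls (7.27%) lie near the 5.49% of all genes that changed. Nectins are adhesion proteins of the immunoglobulin family that join cadherins at adherens junctions, and of 4 measured 1 was higher in each lineage and the others did not pass. Nectin3 stood at 9.87 and 10.19 in basal and 8.14 and 8.20 in luminal arrays (-1.86 ± 0.28, limma adjusted p = 0.0172). Nectin4 stood at 8.86 and 8.68 in luminal and 6.38 and 7.08 in basal arrays (2.04 ± 0.35, limma adjusted p = 0.0214). Of the 18 nectins and actin linkers measured, Ctnnal1, a relative of alpha-catenin, was also higher in basal cells (-1.34 ± 0.28, limma adjusted p = 0.0324), and 15 did not pass, among them Nectin1 (-0.81 ± 0.13) and Nectin2 (0.48 ± 0.36). Nectin2 depended on the probe set: it passed as higher in luminal cells with the most variable probe set (1.57, limma adjusted p = 0.0484) and with the mean of its probe sets (1.03, adjusted p = 0.0445). The list's median was 0.00.

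Among 17 regulators of cadherin transcription and turnover, Snai2, a repressor of E-cadherin transcription, was higher in basal cells. It stood at 6.95 and 6.89 in basal and, below the background level, at 4.93 and 5.12 in luminal arrays (-1.89 ± 0.24, limma adjusted p = 0.0122). Snai1 (-0.69 ± 0.21) and Zeb1 (-0.32 ± 0.40) did not pass, and the basal arrays differed by 1.33 in Zeb1; the median was 0.14. None of 6 other desmosome and envelope genes changed (median 0.07), with Perp, a desmosomal membrane protein, at -0.50 ± 0.21 and Ppl, the plakin periplakin, at 0.72 ± 0.20. None of 14 large and atypical cadherins changed (median -0.10), with Fat1 at -0.31 ± 0.13 and Fat2 at -0.42 ± 0.16. Each of the 4 linked genes that changed lost the call when any 1 of the adult arrays was left out.

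**Figure D5:**
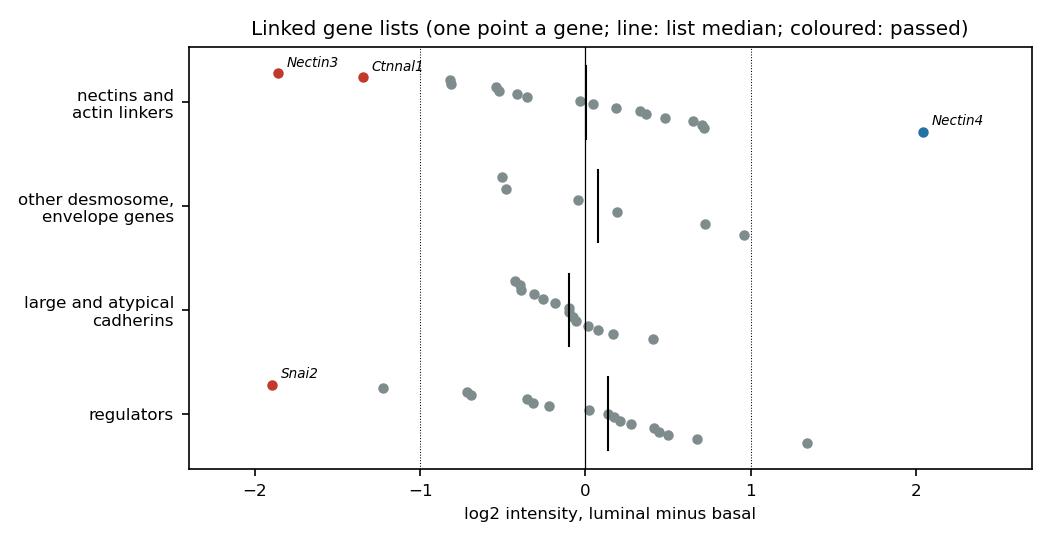
Difference in log2 intensity, luminal minus basal (x axis), for the 55 measured genes of 4 lists of cadherin-linked genes; each point is a gene, black lines are list medians, dotted lines mark 2-fold. The named coloured points, Nectin3, Ctnnal1 and Snai2 on the basal and Nectin4 on the luminal side, are the 4 that changed.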

How the data were processed

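The authors deposited probe set intensity values on a linear scale, 1 column per array; RMA and affy are named in the submitters' processing notes, with their settings not stated. Because the planned tests assumed a log2 scale, each intensity was log2-transformed first. The table has 45141 rows; empty rows (4) and controls (104) were dropped. The platform annotation gave 28895 probe sets 1 symbol, 551 several and 15587 none; the members had 92 with 1 symbol and 6 with several, which were not used. Each of 17096 genes was represented by its brightest probe set on average over the 7 arrays. Limma 3.58.1 (R 4.3.3) fitted 3 group means to all 7 arrays with eBayes (4 residual and 2.29 prior degrees of freedom), the tied embryonic values included. Adjusted p-values cover all genes. The script was tested on simulated data.

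Members and lists were chosen with earlier results of these data known. Named by rule were the changed members, 20 key members, at most 10 others above background, and per linked list up to 4 changed genes a direction and 2 that did not pass. The small number of arrays limits precision. The organ-restricted gene list was written after member levels had been seen. The background level, first 6.13 from the brightest probe set of each listed gene, was changed to 5.92 over all their probe sets after results were seen; it enters no call outside the analysis of genes above background. Of the 105 listed genes 1, Fgb, was called. Plots used matplotlib 3.10.9 (Python 3.11.15).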

Additional observations from a re-analysis of the deposited data

How the results depend on the processing

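Members higher in basal cells numbered 3; 5 with quantile normalization (Cdh13 and Ctnnd2 added), with the 4 adult arrays alone (Ctnnd2 and Pcdh7 added), and with a minimum of 1.5-fold or none; 1 with array weights; and 1 to 2 when each adult array was left out in turn. Members higher in luminal cells numbered 2; 1 with the most variable probe set, 0 with only genes above background tested, which left out Pkp2 and Dsc2, and 0 to 1 when an array was left out. All changed genes numbered 939; 605 with array weights, 1839 and 2223 with a 1.5-fold or no minimum, and 60 to 377 when an array was left out. Linked genes higher in basal cells numbered 3; 1 with array weights, 6 and 7 with a 1.5-fold or no minimum, and 0 to 0 when an array was left out. Linked genes higher in luminal cells numbered 1; 3 with the mean of all or the most variable probe set, 2 with the 4 adult arrays alone, 4 with a 1.5-fold or no minimum, and 0 to 0 when an array was left out. Where an array was left out, the single array remaining in a lineage is taken to have the spread of the rest.

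Replicate numbers 1 and 2 are shared by the luminal and basal labels. The correlation over genes of replicate 2 minus 1 between lineages was 0.08. A correlation over all genes cannot show whether same-numbered arrays were paired or shared a batch, and the main fit holds no pairing. With a replicate block on the 4 adult arrays, members higher in basal cells numbered 6 (Cdh5, Ctnnd2 and Pcdh7 added, Cdh5 with a limma adjusted p of 0.0199) and linked genes higher in luminal cells 2. Of 31 named genes over 14 alternatives, 379 differences kept both their side and their call, 34 fell short of the threshold, 6 newly passed it and 8 turned sign. The cause of these changes was not tested. Alternatives that altered only the spread, the genes tested or the fold minimum left the difference as it was, so its side could not turn. A kept call also covers genes that passed in neither fit, so the tally is no measure of robustness. Ctnna1 had 0.066 with the mean of all probe sets, 0.15 with the most variable one and -0.099 to 0.054 when an array was left out. With an array left out, Jup ran from -0.14 to 0.22, Nectin2 from -0.00043 to 0.96 and Zeb1 from -0.98 to 0.35. With the background level of 6.13, an alternative added after the data were seen, 29 members in place of 27 lay below it in both lineages. Signal over background limits Pkp2, Dsc2, Pcdh18 and Snai2, each below the background level in at least 1 lineage.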
